A study of Mus musculus with 6 samples.

Results

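Hypoxia-inducible factor (HIF) and the enzymes that sense oxygen for it were represented by 9 genes, taken by symbol from the deposited expression table of 55367 rows: Hif1a, Epas1, Arnt, Egln1, Egln2, Egln3, Vhl, Hif1an and Cited2. All 9 had a row, and 8 of them had enough reads to be tested among 12618 genes. The cells were LLC cells, a wild-type mouse line from a Lewis lung carcinoma, kept in medium with serum. In one group 3 samples received 5 µM STM2457, a small-molecule inhibitor of the m6A-writing enzyme METTL3, for 46 h. In the other, 3 samples received the solvent DMSO for 46 h. The labels state no lowered oxygen, and both groups are the same single line without a normal counterpart.

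HIF is a pair of proteins, an oxygen-labile alpha subunit and the stable partner ARNT, that together switch on genes for glycolysis, vessel growth and oxygen supply. When oxygen is present, prolyl hydroxylases of the EGLN family mark the alpha subunit, VHL binds the marked protein and a ubiquitin ligase sends it to the proteasome, while the asparaginyl hydroxylase HIF1AN blocks its contact with the coactivators CBP and p300. Much of this control acts on the protein, which was not measured here. Several genes of the circuit, among them Egln1, Egln3 and Cited2, are known HIF targets themselves.

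The libraries held 17671712 to 17917209 reads in genes, recovered from the deposited values, so that counting error is small for every tested member, the scarcest of which, Vhl, had at least 514 normalised reads in each library. Normalised reads are the recovered reads divided by the size factor of the library. Of 4 mesenchymal markers Vim and Fn1 were abundant, with Vim at 2579 to 2634 CPM (reads scaled by the library total) after STM2457 and 2949 to 3059 CPM in DMSO, and the 4 summed to 4166 to 4269.8 CPM after STM2457 and 5268 to 5307 CPM in DMSO. Vim and Fn1 fell, Cdh2 rose (35.6 to 37.5 CPM after STM2457 and 26.8 to 30.3 CPM in DMSO, limma adjusted p = 5.3e-06), and Col1a1 was scarce, at 0.447 to 0.893 CPM after STM2457 and 0.622 to 1.19 CPM in DMSO. The epithelial markers Epcam and Cdh1 had 0 reads in every library, and the summed level of 4 epithelial markers was 0 to 0.392 CPM after STM2457 and 0.566 to 0.622 CPM in DMSO. Of the lung alveolar markers Nkx2-1 had 0 reads, and Hopx had 7.65 to 9.10 CPM after STM2457 and 7.75 to 8.26 CPM in DMSO. The sum of 3 fibroblast markers was 7.98 to 8.89 CPM after STM2457 and 8.37 to 11.1 CPM in DMSO. Of these the scarce Lum fell (0.168 to 0.726 CPM after STM2457 and 1.24 to 2.32 CPM in DMSO, limma adjusted p = 4.2e-04). Pdgfra and Dcn did not pass the test. A summed 5 endothelial markers reached 0.224 to 0.502 CPM after STM2457 and 0.283 CPM in each DMSO library, and 6 leukocyte markers at most 0.112 CPM after STM2457 and 0.113 CPM in DMSO. Neutrophil markers reached at most 0.0558 CPM after STM2457 and 0 in DMSO, and erythroid markers were at 0 in every library. The part of these markers in the results was not tested. Mettl3 itself did not pass the test (488 ± 32.4 normalised reads after STM2457 and 537 ± 66.0 in DMSO, SD, n = 3, limma adjusted p = 0.15). This is RNA of the gene, whereas the drug acts on the enzyme, so it does not check the treatment, and its exons overlap those of Tox4 on the opposite strand. The chi-square per gene between replicates, about 1 under sampling noise alone, was 1.64 to 2.45 among STM2457 libraries and 3.27 to 5.58 among DMSO libraries, where the highest value was between DMSO replicates 1 and 2.

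The comparison asks which HIF and oxygen-sensing transcripts differ between STM2457 and DMSO. Hif1a, Arnt, Egln1, Egln3 and Vhl fell, to 0.632 to 0.860 of the DMSO level, and Egln2, Hif1an and Cited2 rose, 1.08-fold to 1.36-fold. By limma on the deposited log2 values, adjusted over all tested genes, 5 of 8 members were thus lower (62.5%, against 25.7% of all tested genes) and 3 of 8 higher (37.5%, against 30.7% of all tested genes). In 7 of the 8, all libraries of one group lay above all of the other, which was so for 61.8% of all tested genes. The median member stood at 0.827 of its DMSO level, against 1.01 over all tested genes, whose quartiles were 0.866 and 1.16. With the scale centred on the upper quartile of each library, the 5 falls and the rise of Egln2 kept their calls, and Hif1an (adjusted p = 0.08) and Cited2 (adjusted p = 0.32) did not. In bulk RNA a change in the number of cells that hold a transcript and a change in its amount per cell cannot be told apart.

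**Figure D1:**
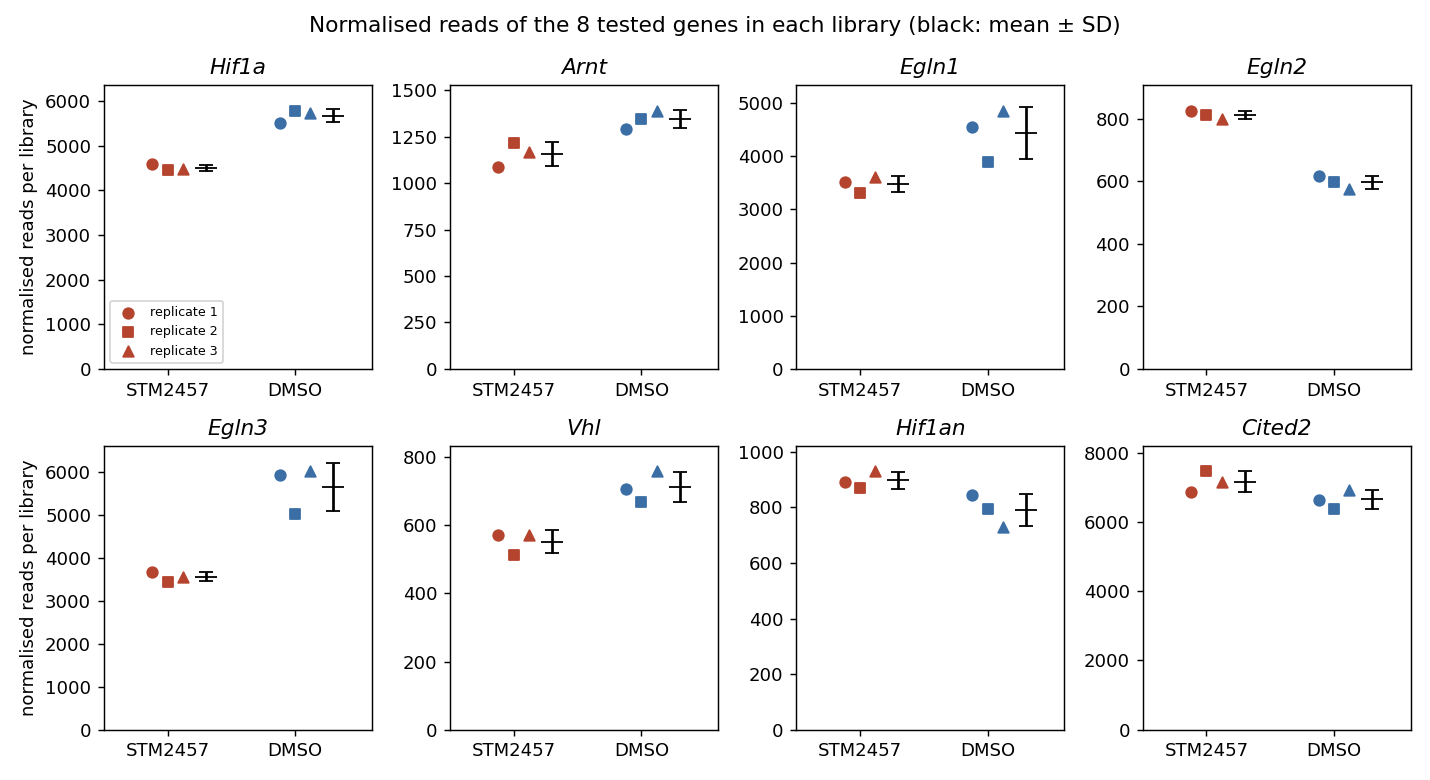
Normalised reads (y axis, from 0) of the 8 tested genes in the 3 STM2457 libraries (red, left) and the 3 DMSO libraries (blue, right), with a marker shape for each replicate number and the mean ± SD in black. Hif1a, Arnt, Egln1, Egln3 and Vhl lie lower after STM2457 and Egln2 and Hif1an higher without overlap, while the Cited2 groups overlap.

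Hif1a encodes the oxygen-labile alpha subunit HIF-1alpha. It had 4583, 4461 and 4466 normalised reads after STM2457, against 5507, 5778 and 5718 in DMSO. The groups did not overlap, with means of 4503 ± 69.0 after STM2457 and 5667 ± 143 in DMSO (SD, n = 3). Hif1a stood at 0.795 of its DMSO level (95% confidence interval 0.755 to 0.837). The difference on the deposited log2 scale was -0.19 (SE 0.022, limma adjusted p = 3.9e-08), and each of the 13 alternatives kept the call. In the GENCODE annotation of GRCm38, Hif1a occupies bases 73901375 to 73947530 of the plus strand of chromosome 12. Its exons share 330 bases with Gm15283 on the other strand and 148 bases with Gm49321 on its own strand. Gm15283 had 7 to 12 reads after STM2457 and 7 to 17 in DMSO, far fewer than Hif1a.

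Epas1, on chromosome 17 from 86753700 to 86833410, encodes HIF-2alpha, the alpha subunit known from endothelial and kidney cells. It had 0 reads in each STM2457 library and 1, 0 and 0 reads in DMSO replicates 1, 2 and 3. A count of 0 allows up to 3 reads, which come to 0.167 to 0.170 CPM here, for counting error only. At this depth Hif1a was therefore the only HIF alpha gene of the pair that could be measured, with at least 251 CPM in every library. Hif3a, the gene of a further alpha subunit and no member of the set, also had 0 reads in all 6 libraries.

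Arnt encodes the stable beta subunit, which HIF shares with other factors of its family. It had 1085, 1214 and 1169 normalised reads after STM2457, against 1292, 1347 and 1389 in DMSO. The groups did not overlap, and Arnt fell to 0.860 of its DMSO level (95% confidence interval 0.803 to 0.921), the smallest of the 5 falls in fold. The deposited log2 difference was -0.12 (SE 0.027, limma adjusted p = 4.9e-04). Arnt lies on chromosome 3 from 95434388 to 95497240. The related gene Arnt2, from the list of HIF turnover and cofactors, was scarcer and also fell, to 96.3 ± 9.11 normalised reads after STM2457, against 130.3 ± 7.60 in DMSO (SD, n = 3, limma adjusted p = 0.002). Arntl, a further relative on that list, did not pass the test (0.971 of DMSO, limma adjusted p = 0.5).

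The HIF prolyl hydroxylases are encoded by Egln1 (PHD2, the main HIF hydroxylase in cells with normal oxygen), Egln2 (PHD1) and Egln3 (PHD3). Egln1 lies on chromosome 8 from 124908587 to 124949324, Egln2 on chromosome 7 from 27158658 to 27166802 and Egln3 on chromosome 12 from 54178981 to 54203860, all on the minus strand. Their promoters are shown because these close relatives differed in direction, and any link between promoter and direction was not tested. Each runs 5′ to 3′ on the strand of the gene, from 250 bases before to 50 bases after its RefSeq start (GRCm38.p6), over chr8:124949205-124949504, chr7:27166753-27167052 and chr12:54203825-54204124. Capitals mark the core letters of the hypoxia response element, ACGTG or GCGTG, on either strand, so that a core on the other strand reads CACGT or CACGC.
Egln1: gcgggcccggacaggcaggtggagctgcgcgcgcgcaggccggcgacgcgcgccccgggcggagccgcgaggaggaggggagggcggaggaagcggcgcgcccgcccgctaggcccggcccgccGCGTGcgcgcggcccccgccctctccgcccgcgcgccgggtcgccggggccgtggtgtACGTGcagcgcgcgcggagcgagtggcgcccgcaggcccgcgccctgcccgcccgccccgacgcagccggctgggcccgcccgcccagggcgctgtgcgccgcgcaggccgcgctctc
Egln2: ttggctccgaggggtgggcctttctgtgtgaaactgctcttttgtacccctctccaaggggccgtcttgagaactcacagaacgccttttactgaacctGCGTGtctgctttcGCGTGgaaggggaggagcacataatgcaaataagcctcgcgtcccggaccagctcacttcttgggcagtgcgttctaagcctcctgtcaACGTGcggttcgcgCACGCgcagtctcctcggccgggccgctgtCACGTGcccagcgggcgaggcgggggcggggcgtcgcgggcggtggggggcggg
Egln3: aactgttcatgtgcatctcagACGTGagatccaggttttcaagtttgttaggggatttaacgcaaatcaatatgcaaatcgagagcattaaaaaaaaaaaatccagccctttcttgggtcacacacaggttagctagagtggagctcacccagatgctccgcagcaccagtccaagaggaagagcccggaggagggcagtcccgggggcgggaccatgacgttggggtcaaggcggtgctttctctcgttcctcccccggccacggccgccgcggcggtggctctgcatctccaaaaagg

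The Egln1 window held 2 such cores, the Egln3 window 1 and this Egln2 window 6, of which 2 are the same letters CACGTG read on both strands. A second RefSeq start of Egln2 had 1 core. Of the promoters of tested genes, 63.0% held at least 1 core and 1.26% held 6 or more. Among the other members the windows of Hif1a (3 cores), Cited2 (2) and Arnt (1) held cores, and those of Vhl and Hif1an held 0. In Hif1a and Cited2 too, 2 of the cores are CACGTG read on both strands. These matches describe letters in short windows and say nothing of binding.

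Egln3 changed most of all members. It had 3678, 3455 and 3569 normalised reads after STM2457, against 5937, 5024 and 6020.3 in DMSO. The lowest DMSO library, replicate 2, was still above every STM2457 library. Egln3 fell to 0.632 of its DMSO level (95% confidence interval 0.574 to 0.696), and 6.70% of all tested genes had a lower fold. The deposited log2 difference was -0.39 (SE 0.037, limma adjusted p = 4.6e-06). Without DMSO replicate 2 it was -0.44 (adjusted p = 5.1e-16), within a range of -0.44 to -0.36 as each library was left out in turn.

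Egln1 had 3511, 3312 and 3603 normalised reads after STM2457, against 4546, 3893 and 4853 in DMSO. It fell to 0.787 of its DMSO level (95% confidence interval 0.691 to 0.898), with no overlap between the groups. As for Egln3, DMSO replicate 2 was the lowest of its group, which made the DMSO spread wide (4431 ± 490.5 normalised reads, SD, n = 3). The deposited log2 difference was -0.20 (SE 0.046, limma adjusted p = 0.0061). Leaving out DMSO replicate 1 ended the call (-0.19, adjusted p = 0.056), whereas leaving out DMSO replicate 2 gave -0.26 (2.7e-10).

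Egln2 went the other way. It had 826, 812 and 801 normalised reads after STM2457, against 618, 597 and 576 in DMSO, and the libraries within a group were close together. The rise was 1.36-fold (95% confidence interval 1.26 to 1.47), and 91.4% of all tested genes had a lower fold. The deposited log2 difference was 0.23 (SE 0.028, limma adjusted p = 1.2e-07), and leaving out each library gave 0.22 to 0.25. The exons of Egln2 overlap Cyp2t4 on the other strand by 11 bases, and Cyp2t4 had 1 to 7 reads after STM2457 and 3 to 5 in DMSO.

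**Figure D2:**
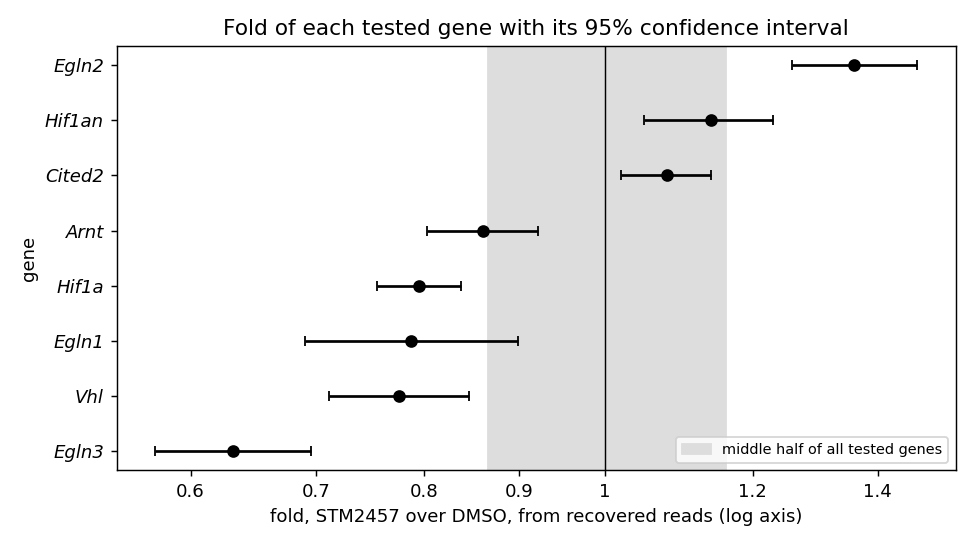
Fold of STM2457 over DMSO (x axis, log scale, from recovered reads) for the 8 tested genes, with points for the estimate and bars for the 95% confidence interval. The grey band, 0.866 to 1.16, runs between the quartiles of all 12618 tested genes, and the estimates of Egln3, Vhl, Egln1, Hif1a and, narrowly, Arnt lie below it while that of Egln2 lies above it.

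Levels per length allow these genes to be set beside each other, as CPM per kilobase of annotated exon. The summed level of the 3 EGLN genes was 149, 141 and 148 after STM2457, against 210.0, 181 and 215 in DMSO. Their sum thus averaged 146 ± 4.56 after STM2457 and 202 ± 18.1 in DMSO (SD, n = 3), a ratio of 0.723. Egln3 made up 51.6% ± 0.545 of that sum after STM2457 and 59.5% ± 0.437 in DMSO (SD, n = 3), with at most 52.1% in an STM2457 library and at least 59.2% in a DMSO library. Egln2 made up 11.1%, 11.6% and 10.9% after STM2457, against 5.94%, 6.69% and 5.39% in DMSO. The share of Egln1 was 37.2% ± 0.785 after STM2457 and 34.5% ± 0.775 in DMSO (SD, n = 3). For the sum and for each of the shares the groups did not overlap, and the exact two-sided permutation test gave p = 0.10, which is the smallest that 3 against 3 libraries allow. The order within the trio, Egln3 above Egln1 above Egln2, was the same in all 6 libraries.

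**Figure D3:**
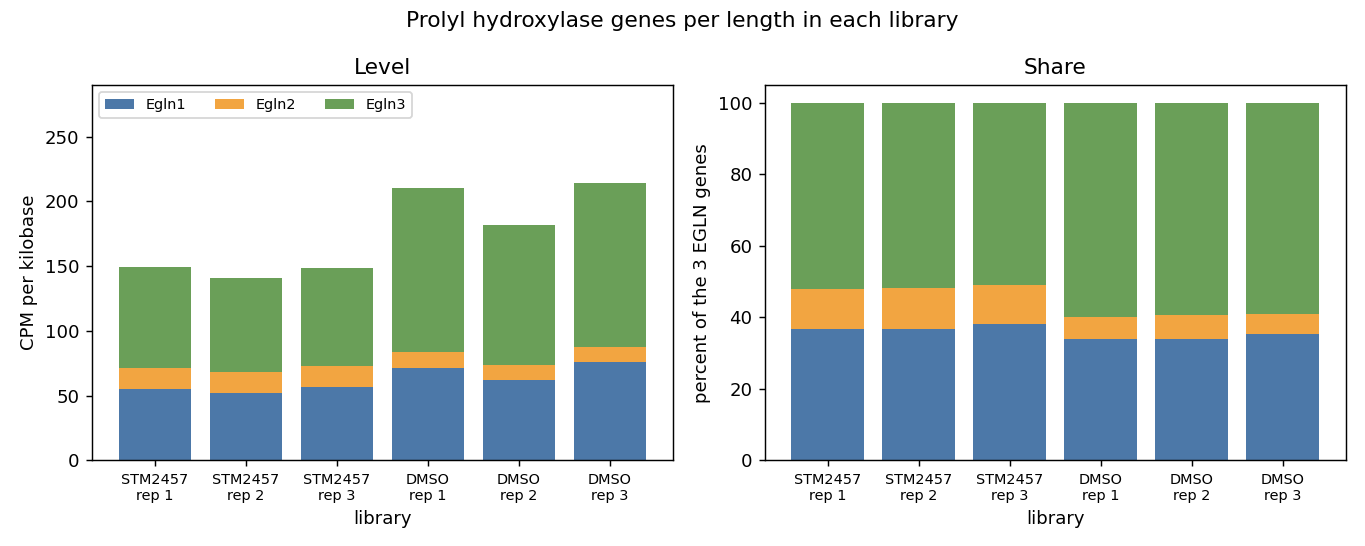
Level of Egln1, Egln2 and Egln3 in each library as stacked bars (left, CPM per kilobase) and as a share of their sum (right, percent), with the 3 STM2457 libraries left of the 3 DMSO libraries. After STM2457 the bars are lower in sum (141 to 149 against 181 to 215 in DMSO), and the Egln3 share is smaller and the Egln2 share larger.

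Vhl encodes the subunit that recognises hydroxylated HIF alpha. It had 570.1, 514 and 573 normalised reads after STM2457, against 708, 669 and 758 in DMSO, with no overlap between the groups. Vhl fell to 0.776 of its DMSO level (95% confidence interval 0.712 to 0.846), close in fold to Hif1a and Egln1. The deposited log2 difference was -0.19 (SE 0.031, limma adjusted p = 1.6e-05), and each of the 13 alternatives kept the call. Vhl occupies bases 113623959 to 113631633 of chromosome 6.

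Hif1an, the gene of the asparaginyl hydroxylase, had 892, 869.6 and 929 normalised reads after STM2457, against 845, 793 and 731 in DMSO. The groups did not overlap, but DMSO replicate 1 came close to the lowest STM2457 library. The rise was 1.14-fold (95% confidence interval 1.05 to 1.23), with a deposited log2 difference of 0.10 (SE 0.029, limma adjusted p = 0.006). The call was lost without DMSO replicate 3 (adjusted p = 0.064) and with upper-quartile (0.08) or median centring (0.054), and the lowest adjusted p of the 13 alternatives was 0.001. Hif1an lies on chromosome 19 from 44562850 to 44576274.

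Cited2 encodes a nuclear protein that competes with HIF alpha for CBP and p300. It had 6872, 7455 and 7164 normalised reads after STM2457, against 6646, 6386 and 6921 in DMSO, so that DMSO replicate 3 lay above STM2457 replicate 1. The rise was the smallest of the members, 1.08-fold (95% confidence interval 1.02 to 1.14), with a deposited log2 difference of 0.06 (SE 0.024, limma adjusted p = 0.025). Of the 13 alternatives 7 kept the call, and the adjusted p ranged between 0.015 and 0.32. It was lost without STM2457 replicate 2 (0.18), STM2457 replicate 3 (0.069) or DMSO replicate 2 (0.086). Cited2 lies on chromosome 10 from 17723218 to 17725674.

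Per length, Cited2 was the most abundant member, at 164 ± 6.62 CPM per kilobase after STM2457 and 153 ± 5.26 in DMSO (SD, n = 3). Egln3 followed at 75.4 ± 2.40 after STM2457 and 120.3 ± 11.1 in DMSO, then Egln1 at 54.4 ± 2.45 after STM2457 and 69.7 ± 7.31 in DMSO. Hif1a, the next, measured 43.0 ± 0.628 after STM2457 and 54.4 ± 1.55 in DMSO, and the groups of these 4 genes did not overlap each other in either treatment. Below these lay Egln2 (16.3 ± 0.229 after STM2457 and 12.1 ± 0.453 in DMSO), Vhl (10.4 ± 0.644 after STM2457 and 13.4 ± 0.767 in DMSO), Arnt (8.13 ± 0.463 after STM2457 and 9.49 ± 0.337 in DMSO) and Hif1an (7.64 ± 0.279 after STM2457 and 6.77 ± 0.502 in DMSO). By exon length Egln2 stood above Vhl after STM2457 and below it in DMSO, in each library of the group. After STM2457 Arnt (7.61 to 8.52) and Hif1an (7.39 to 7.94) overlapped, and in DMSO Arnt (9.12 to 9.77) lay above Hif1an (6.23 to 7.23). The order depends on the length used. With the longest protein-coding transcript in place of all exons, the mean of Arnt lay above that of Vhl in both groups, and Hif1a measured 53.6 ± 0.784 after STM2457 and 67.9 ± 1.93 in DMSO, next to Egln1.

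VHL works within a ligase with elongins B and C, cullin 2 and RBX1, and of 8 genes for this complex, NEDD8 and its ubiquitin-conjugating enzymes, 2 rose and 0 fell by limma, against 30.7% and 25.7% of all tested genes (3 rose and 0 fell at an unadjusted p under 0.05, and limma-voom on the recovered reads gave 2 and 0). Ube2d1 rose to 1026 ± 29.1 normalised reads, against 895 ± 6.20 in DMSO, and Ube2d2a to 1874 ± 103, against 1725 ± 46.0 in DMSO (SD, n = 3, limma adjusted p = 0.001 and 0.027). Nedd8 (1.07-fold, limma adjusted p = 0.064) and Ube2d3 (1.05-fold, 0.11) did not pass. The ligase subunits Elob (0.975 of DMSO), Eloc (0.972), Cul2 (0.980) and Rbx1 (0.992) did not pass either. The median of the 8 genes was 1.02, against 0.776 for Vhl, a difference that was not tested. Upper-quartile centring called 1 of them higher and 2 lower. Leaving out 1 library gave 1 called higher without STM2457 replicate 1 or 2 or DMSO replicate 2 or 3, and 3 called higher without STM2457 replicate 3 or DMSO replicate 1.

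Of 24 tested genes for HIF turnover and cofactors, 9 rose (37.5%) and 7 fell (29.2%), near the shares of all tested genes (30.7% and 25.7%), with a median fold of 1.01. Those of smallest adjusted p were Wsb1, a ubiquitin ligase subunit (0.769 of DMSO, limma adjusted p = 1.6e-08), the pyruvate kinase gene Pkm (0.849, 3.5e-06), and the ubiquitin ligase genes Siah2 (0.777, 4.6e-06) and Siah1b (1.41-fold, 7.6e-06). Siah2, whose protein is known to mark EGLN proteins for breakdown, had 581 ± 27.6 normalised reads after STM2457 and 748 ± 19.1 in DMSO (SD, n = 3). Siah1b has the near-identical copy Siah1a, and Pkm shares exon bases with Gm49759, so reads may have been split. The coactivator genes Crebbp (CBP, 1.33-fold, 1.6e-05) and Ep300 (p300, 1.13-fold, 6.6e-04) rose.

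The EGLN enzymes belong to a family of dioxygenases that use oxygen, iron and 2-oxoglutarate. Of 28 other tested genes of that family or related to it, 7 rose (against 30.7% of all tested genes) and 11 fell (39.3%, against 25.7%), with a median of 0.951. Among those that fell, P4ha1, P4ha2, Plod2 and Kdm3a are hypoxia targets as well and are counted again with them below. The 39.3% is thus not a share of the family apart from hypoxia targets. The genes of smallest adjusted p on this list all fell. The histone demethylase gene Kdm6b had 887 ± 36.2 normalised reads after STM2457 and 1370.1 ± 32.0 in DMSO (limma adjusted p = 5.4e-11), and Kdm4b had 995 ± 74.1 after STM2457 and 1472 ± 94.7 in DMSO (1.6e-08; SD, n = 3). The 5-methylcytosine dioxygenase gene Tet2 fell to 0.593 (2.9e-08) and P4ha1, for a collagen prolyl hydroxylase, to 0.776 (5.6e-08) of the DMSO level. Exons of Kdm6b and of Tet2 overlap an opposite-strand gene, and neither labels nor notes say whether strand was used in counting.

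Of 27 tested hypoxia targets outside the set, 22 fell (81.5%, against 25.7% of all tested genes) and 1 rose (3.70%, against 30.7%), with a median of 0.731. The list holds P4ha1, P4ha2, Plod2 and Kdm3a, which the dioxygenase list holds too, and that hypoxia genes fall was known when it was drawn up. The 4 of smallest adjusted p were Ddit4, an inhibitor of mTORC1 (0.393 of DMSO, limma adjusted p = 8.0e-18), the transferrin receptor gene Tfrc, the only one that rose (2.66-fold, 9.4e-18), Ndrg1 (0.515, 4.0e-14) and Ankrd37 (0.259, 2.3e-12). Ndrg1 and Ankrd37 overlap genes on the other strand. Egln3 at 0.632 and Egln1 at 0.787 lay on either side of this median, and Cited2 at 1.08-fold lay above it. DMSO replicate 2 was the lowest of the DMSO libraries for 21 of the 27 targets and for 4 of the 8 members (Egln1, Egln3, Vhl and Cited2). It was also the lowest for 6 of the 8 VHL ligase genes, 19 of the 28 dioxygenase genes and 8 of the 24 turnover and cofactor genes. The share over all tested genes was not counted, so this is not shown to be particular to hypoxia targets. Without that library the deposited log2 differences of Egln1 (-0.26) and Egln3 (-0.44) were larger in size than with it, and those of Vhl (-0.21) and Hif1a (-0.19) were about as large.

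**Figure D4:**
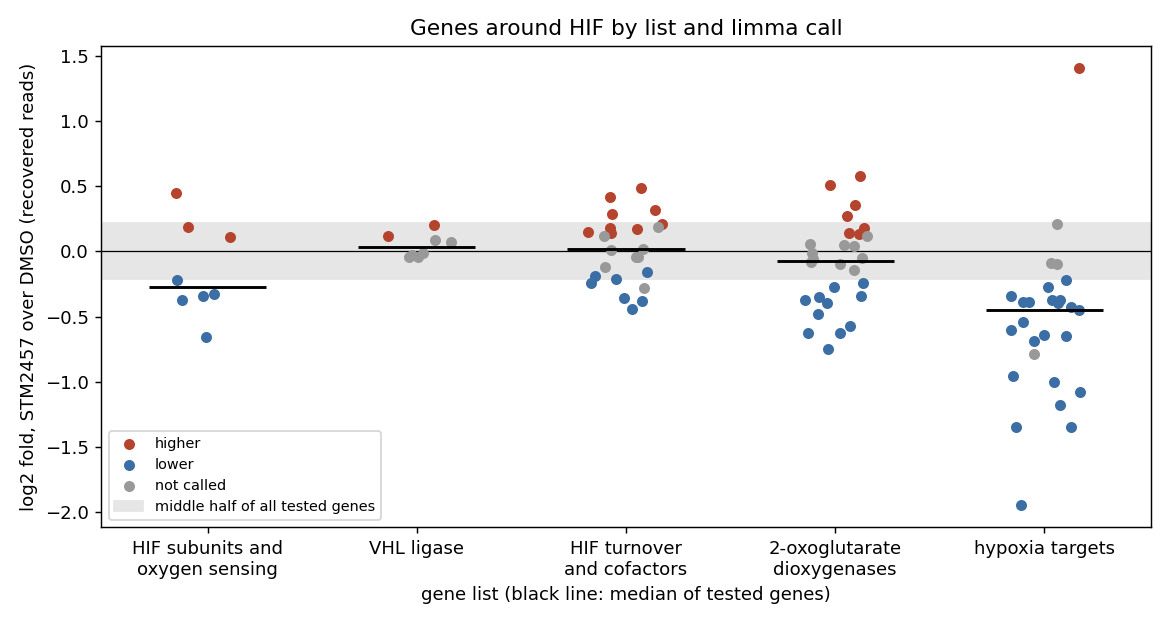
Log2 fold of STM2457 over DMSO from recovered reads (y axis) for the tested genes of each list (x axis), coloured by the limma call, with a black line at each list's median and a grey band between the quartiles of all tested genes. The VHL ligase genes lie within the band, and most hypoxia targets lie below it.

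The genes most like the member with the largest rise and the one with the largest fall were found by Pearson's r of deposited log2 values over the 6 libraries. For Egln2 they were Slc25a44 (r = 0.9996, 1.59-fold), Gskip (0.9991, 1.31-fold) and Nme6 (0.9990, 1.55-fold). For Egln3 they were Usf3 (r = 0.9995, 0.675 of DMSO) and Sap30 (0.9989, 0.821). These values mostly restate the difference between the groups, since 1684 tested genes had r over 0.95 with Egln2 and 716 with Egln3.

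METTL3 is known to methylate adenosine within a short motif of which GGACT is a common form, and m6A itself was not measured in these samples. On the longest protein-coding transcripts of the 8 tested members, GGACT occurred 1 (Arnt) to 7 (Hif1an) times, or 0.23 (Arnt) to 1.66 (Cited2) times per kilobase, against a median of 1.04 over 11012 tested genes. Cited2 (1.66 per kilobase), Egln2 (1.42) and Hif1an (1.13), which rose, lay above the median. Of the members that fell, Egln3 (1.13) and Egln1 (1.11) also lay above it, close to Hif1an. Hif1a (0.85), Vhl (0.72) and Arnt (0.23), which fell too, lay below the median. Any link between the density of the motif and the direction was not tested.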

How the data were processed

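RNA-seq libraries of 3 STM2457 and 3 DMSO samples of LLC cells, grouped by their titles, were compared. HISAT2 2.2.1 and featureCounts 2.0.1, beside FastQC 0.11.9 and DESeq2, are named with GRCm38 per the submitters' processing notes. Annotation, strand and settings are not stated there. The authors deposited log2 values per gene symbol, whose form is that of a regularised log2 transform: values are shrunken towards the gene's mean, and 59.9% of a log2 difference is kept at high counts.

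Counts of reads were recovered by inverting that transform (penalty 60.5, dispersion 1.89 over the mean plus 0.0111, size factors 0.995 to 1.009, estimated from the deposited log2 values). Whole numbers, to within 0.05 reads, made up 98.9% of values for genes under a mean of 500 reads, 89.5% at 500 to 2000 and 69.4% above, and all were rounded. Levels and folds come from these reads, folds with limma-voom.

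Since the unit was log2, calls come from limma 3.58.1 in R 4.3.3 (statmod 1.5.0, trend and robust priors, group as the only term, no pseudocount) on the 12618 genes with a mean of at least 3.32, the log2 of 10 reads, with Benjamini-Hochberg adjustment over all of them and a threshold of 0.05. The procedure was run on simulated counts with the same spread in both groups. That run does not cover the wider spread among the DMSO libraries. Separate cultures are not stated in the labels, so p-values reflect only spread among these 6 libraries, possibly technical. Alternatives were other centring, other level filters, plain priors, limma-voom, each library left out, and the replicate number as a block.

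Named were all members, up to 4 genes of smallest adjusted p per list, the 3 genes most like Egln2 and Egln3, of which 1 is not reported here, and Mettl3. Arnt2, Arntl, Hif3a, Crebbp, Ep300, Elob, Eloc, Cul2, Rbx1 and genes that overlap members were added after their values were seen. Members and lists were chosen with earlier results of these data known. Lengths and positions are from GENCODE M21, and promoters from RefSeq.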

Additional observations from a re-analysis of the deposited data

How the results depend on the processing

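Of 104 values of the 8 tested members under 13 alternatives, 94 kept direction and side of the threshold, 10 kept direction but lost the call and 0 reversed. The lost calls were those of Cited2 (6), Hif1an (3) and Egln1 (1). The 5 falls held in every alternative except that of Egln1 without DMSO replicate 1. The number of members called higher went to 1 with upper-quartile centring and to 1 with median centring, against 3 as reported. Those centrings shifted the median log2 difference of all tested genes by -0.04 and -0.03, and changed the count over all genes to 2819 higher and 4814 lower or 2941 and 4621, against 3868 and 3240. In the VHL ligase list upper-quartile centring called 1 gene higher and 2 lower, and leaving out each library gave 1 to 3 higher. With the longest coding transcript as the length, the difference in share of the EGLN sum was 6.51 percentage points for Egln2 (5.18 as reported) and -8.60 for Egln3 (-7.92). This follows from the length entering the share directly. The causes of the other changes were not tested.

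Same-numbered libraries of the groups did not deviate together (r of deviations 0.05, 0.01 and 0.04, against -0.06 to 0.02 for other pairs), so the numbers are not taken as pairs. With the replicate block 3 members were higher and 5 lower, and over all genes 3864 higher and 3226 lower. Depth limits only Epas1 among the members.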
